A study of Mus musculus with 8 samples.

Results

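The 45 genes described here encode proteins of DNA replication and S phase: the licensing and firing of replication origins, the polymerases, the sliding clamp and its loader, the proteins that finish the lagging strand, nucleotide supply, entry into S phase, the replication checkpoint and chromatin assembly. They were taken as a list of gene symbols and matched to an Affymetrix mouse expression array, and 45 of 45 were found among the 12393 genes measured. Each gene was read from 1 probe set, chosen among those with a single gene symbol for its mean level, the highest of them. The values are log2 expression levels that the authors had processed with RMA.

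The arrays measured total RNA of 6 primary soft tissue sarcomas and 2 normal muscles of mice. Sarcomas had been induced by injecting an adenovirus that expresses Cre recombinase into mice with conditional alleles, so that recombination is limited to cells the virus reached. All mice carried floxed p53 (p53 Fl/Fl), the controls included, and either 2 copies (Ca/Ca) or 1 copy (Ca/+) of the conditional Braf Ca allele. There were 4 Ca/Ca sarcomas (numbered 1, 2, 3 and 5), 2 Ca/+ sarcomas (1 and 2), 1 Ca/Ca muscle and 1 Ca/+ muscle, the muscles from hind limbs that bore no tumour. The sources used here give no age. Nothing in the labels says that the arrays of a group came from separate animals, and p-values here describe the scatter among these samples only, which may be technical.

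A cell copies its genome once per division. In G1 the origin recognition complex, Cdc6 and Cdt1 load the ring of Mcm subunits onto DNA, and in S phase the kinase Cdc7 with its activator Dbf4 recruits Cdc45 and the GINS complex to turn that ring into an active helicase. Primase and DNA polymerase alpha then start each strand, polymerases epsilon and delta extend it with the clamp Pcna, and many of these genes are transcribed as cells leave G1 by E2F factors once the retinoblastoma protein releases them. Resting muscle fibres have left the cell cycle, so most dividing cells of a muscle are other cells of the tissue.

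The promoters of these genes were searched for letters that E2F factors are known to bind, because E2F factors are known to transcribe many genes of this kind. The search used TTTCGCGC, TTTGGCGC and TTTCCCGC on both strands, in windows from 250 bases before to 50 bases after the annotated start site (RefSeq, GRCm38.p6), and matches that overlap were counted separately. Of the 45 members, 37 had a promoter in the RefSeq table, with 43 promoters in all. A match was present in 11 of these 43 promoters (25.6%), against 606 of all 32851 promoters (1.84%) and 2.95% of the promoters of genes on the array. Among 74 promoters of other genes of the replication pathway, 21 held a match (28.4%). Among the licensing members, 6 of 9 promoters held one (66.7%). The promoters of Mcm3, Mcm5, Mcm6, Mcm7 and Cdt1 are shown because they carry the motif and belong to the same licensing step. That of Rpa2, a single-strand binding subunit with no exact match, is shown beside them. Only the exact letters were searched, so near matches, such as gcgggaag in Rpa2, were not counted. They were chosen after the motif search was seen. Capitals mark the matches, and each sequence runs 5′ to 3′ on the strand of its gene.
Mcm3: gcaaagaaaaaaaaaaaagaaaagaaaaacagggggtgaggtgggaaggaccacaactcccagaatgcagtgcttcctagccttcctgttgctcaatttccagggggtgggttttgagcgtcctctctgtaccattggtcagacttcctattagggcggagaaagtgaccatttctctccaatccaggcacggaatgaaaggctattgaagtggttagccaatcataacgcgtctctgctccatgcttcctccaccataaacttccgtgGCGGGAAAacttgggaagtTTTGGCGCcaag
Mcm5: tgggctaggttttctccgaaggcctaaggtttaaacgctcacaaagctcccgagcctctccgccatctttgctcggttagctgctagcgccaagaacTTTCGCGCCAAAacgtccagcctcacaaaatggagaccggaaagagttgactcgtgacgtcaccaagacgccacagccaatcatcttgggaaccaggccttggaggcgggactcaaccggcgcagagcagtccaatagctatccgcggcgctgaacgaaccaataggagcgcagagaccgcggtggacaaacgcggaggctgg
Mcm6: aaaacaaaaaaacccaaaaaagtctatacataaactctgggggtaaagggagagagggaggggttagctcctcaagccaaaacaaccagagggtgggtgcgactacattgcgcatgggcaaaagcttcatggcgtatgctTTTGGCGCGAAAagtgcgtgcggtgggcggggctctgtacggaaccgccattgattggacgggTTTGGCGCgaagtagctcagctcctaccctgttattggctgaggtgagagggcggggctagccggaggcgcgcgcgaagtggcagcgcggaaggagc
Mcm7: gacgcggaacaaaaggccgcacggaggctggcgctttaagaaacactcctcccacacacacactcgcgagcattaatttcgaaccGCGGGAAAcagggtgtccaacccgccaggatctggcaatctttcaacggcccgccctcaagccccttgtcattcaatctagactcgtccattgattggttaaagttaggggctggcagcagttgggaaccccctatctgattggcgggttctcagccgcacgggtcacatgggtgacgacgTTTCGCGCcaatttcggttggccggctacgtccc
Cdt1: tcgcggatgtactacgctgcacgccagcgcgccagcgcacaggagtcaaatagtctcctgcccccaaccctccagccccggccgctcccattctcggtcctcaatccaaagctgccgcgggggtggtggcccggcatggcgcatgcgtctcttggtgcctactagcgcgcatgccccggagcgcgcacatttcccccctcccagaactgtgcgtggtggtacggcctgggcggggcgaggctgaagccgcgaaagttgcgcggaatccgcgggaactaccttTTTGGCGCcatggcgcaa
Rpa2: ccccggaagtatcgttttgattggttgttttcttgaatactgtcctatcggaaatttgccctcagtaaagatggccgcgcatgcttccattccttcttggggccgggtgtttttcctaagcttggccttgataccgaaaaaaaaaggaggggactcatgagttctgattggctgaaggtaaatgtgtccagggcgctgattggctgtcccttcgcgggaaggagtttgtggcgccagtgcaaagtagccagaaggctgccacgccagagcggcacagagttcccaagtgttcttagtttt

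The windows lie at chr1:20820263-20820562 on the minus strand for Mcm3, chr8:75109259-75109558 on the plus strand for Mcm5 and chr1:128359656-128359955 on the minus strand for Mcm6. Those of Mcm7, Cdt1 and Rpa2 lie at chr5:138171834-138172133 (minus), chr8:122567765-122568064 (plus) and chr4:132768110-132768409 (plus). Mcm6 held 3 matches and Mcm3, Mcm5 and Mcm7 held 2 each, and in Mcm5 the 2 matches overlap on opposite strands within the run TTTCGCGCCAAA. Mcm7 has a second promoter in the table, with no match. The other members with a match were Cdc6, Pola1, Pold1, Pole2, Rfc3 and Lig1. Their positions differed: with the start site at 0, the first match began at -153 in Mcm5 and at 32 in Cdt1. The share was 26.7% in promoters of members that were higher in sarcoma and 23.1% in promoters of members that did not pass that test. A match is a description of the letters in the window, not a measured binding site.

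**Figure D1:**
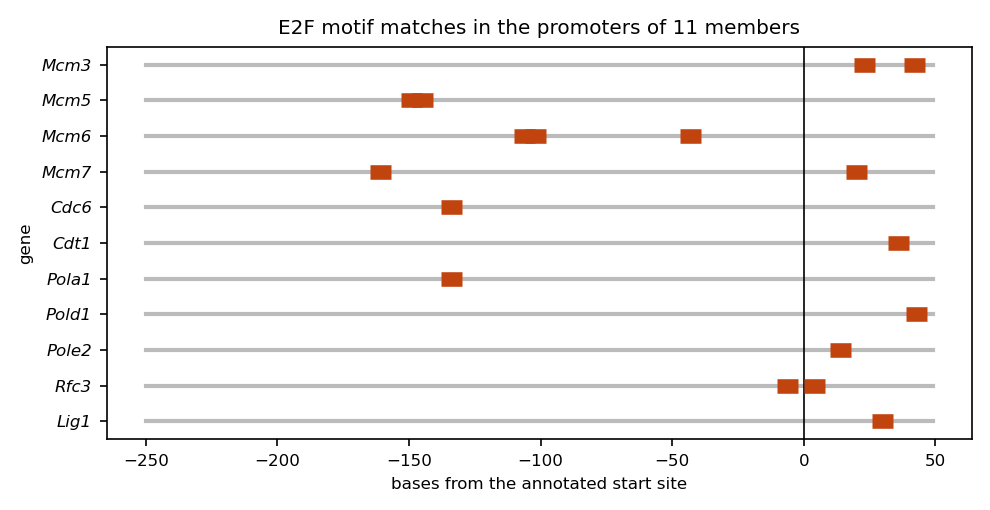
Positions of E2F motif matches (thick marks) in the promoter windows of the 11 members that hold one; the horizontal axis is the distance in bases from the annotated start site (vertical line), 1 row per gene. Matches lie on both sides of the start site, from position -165 in Mcm7 to 45 in Mcm3 and 46 in Pold1.

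The letters CCAAT, a box that the factor NF-Y binds, lay in 46.5% of member promoters. They lay in 37.4% of all promoters and 37.1% of those of genes on the array. The letters TTTGAA, the core of the CHR element known from genes of mitosis, lay in 16.3% of member promoters. That is below the 17.9% of all promoters and above the 12.9% of promoters of genes on the array. In 15 promoters of mitosis genes the same counts were 80% for TTTGAA, 86.7% for CCAAT and 6.67% for the E2F letters. These shares were not tested.

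In the comparison of sarcoma with muscle, 33 of the 45 members were higher in sarcoma, 0 were lower and 12 did not pass (limma, Benjamini-Hochberg adjusted p under 0.05 over 12393 genes, 6 sarcomas against 2 muscles). Of all genes tested, 13.1% were higher and 13.2% lower. The median difference of the members was 1.34 on the log2 scale, beside 0.03 over all genes. Of the members, 30 both passed and were at least 2-fold higher, as were 754 of all 12393 genes. The largest differences were those of Dbf4, Brca1, Mcm6, Rrm2 and Cdc45. All 6 sarcomas exceeded both muscles for 38 members, where 20% of all genes showed the same separation, and all 6 lay below both for 0 members, against 19% of all genes. At an unadjusted p under 0.05, 40 members were higher, with a background of 19.8%. The difference was above 0 for 45 of 45 members, of which Tyms alone turned below 0 when the arrays were centred on housekeeping genes, and for none with cyclic loess normalization.

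The counts depend on which muscle is the reference. Without the Ca/Ca muscle 18 members were called higher, and without the Ca/+ muscle 8 were, in fits where the lone muscle is assumed to vary like the sarcomas. The calls over all genes fell too, from 1626 higher to 1040 and 372. Without Ca/Ca sarcoma 5 the number was 40, and without any other sarcoma it lay between 23 and 33. Ca/Ca sarcoma 5 was the lowest sarcoma for 37 members, so leaving it out was bound to raise their differences. The values without it are therefore no support for a call. Among these members are Mcm3, Prim1, Pole, Lig1, Tk1 and Ccne2, which did not pass with all arrays. Without the Ca/+ muscle their differences were smaller, at 1.04, 1.34, 1.11, 1.03, 1.56 and 1.05 in that order. The 8 members Mcm7, Cdt1, Orc6, Cdc45, Fen1, Dut, Chek1 and Chaf1b kept their call whichever array was left out. All other calls ended without the Ca/+ muscle, among other arrays for some of them, and the value without it is given beside each of those described.

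**Figure D2:**
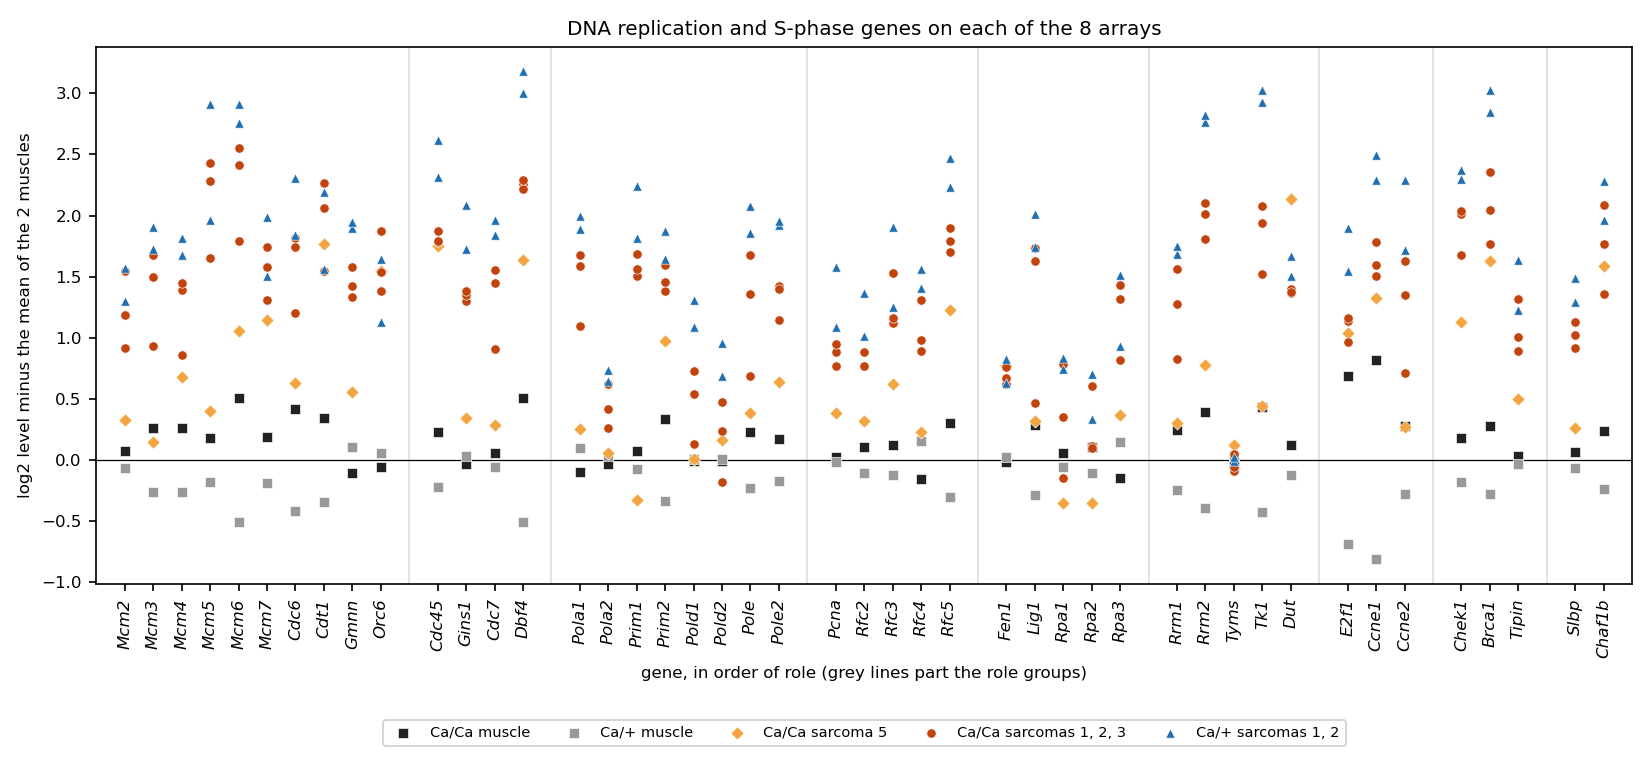
Level of each of the 45 genes on each of the 8 arrays, as log2 level minus the mean of the 2 muscles (vertical axis), in order of role. Squares are muscles, circles and diamonds Ca/Ca sarcomas, triangles Ca/+ sarcomas; the diamonds of Ca/Ca sarcoma 5 are the lowest sarcoma for 37 genes and the highest for Dut and Tyms.

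Of the 10 licensing genes, which prepare origins in G1 or, as Gmnn does, restrain that step, 9 rose in sarcoma and Mcm3 did not pass. Mcm6, a subunit of the helicase ring, read 6.90 in the Ca/Ca and 5.89 in the Ca/+ muscle, and from 7.45 to 9.30 with a median of 8.88 in the sarcomas. The groups did not overlap, and the muscles were themselves 1.01 apart. The difference was 2.25 ± 0.49 (SE), or 4.74-fold, with a limma adjusted p of 0.0118, and 1.74 with an adjusted p of 0.142 without the Ca/+ muscle. Mcm5, another subunit of the ring, read 5.10 in the Ca/Ca and 4.74 in the Ca/+ muscle, against 5.32 to 7.83 (median 7.04) in sarcomas. Its lowest sarcoma, Ca/Ca sarcoma 5, lay close to the muscles, while the other 5 stood well above them. The difference of 1.94 ± 0.56 (adjusted p = 0.0353) was lost on leaving out any array except Ca/Ca sarcoma 3 or 5, with adjusted p from 0.0519 to 0.221.

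Cdt1, which brings the Mcm ring to the origin, read 7.64 and 6.95 in the Ca/Ca and Ca/+ muscle and 8.84 to 9.56 in the sarcomas (median 9.21). Sarcomas of both genotypes were mixed in this range, and the lowest of them was 1.20 above the higher muscle. The difference was 1.90 ± 0.26, 3.73-fold (adjusted p = 0.00157). Orc6, a subunit of the origin recognition complex, had the lowest adjusted p of the members, 0.000941: it read 5.53 and 5.64 in the muscles and 6.71 to 7.46 in the sarcomas (median 7.13), a difference of 1.52 ± 0.19. The muscles differed little for Orc6, and the order of the sarcomas was not that of most members, since Ca/+ sarcoma 1 was lowest and Ca/Ca sarcoma 3 highest.

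Mcm3, also part of the ring, was the licensing gene that did not pass. It read 6.99 in the Ca/Ca and 6.46 in the Ca/+ muscle, and 6.87 in Ca/Ca sarcoma 5, while the other sarcomas reached from 7.66 to 8.63. Thus 5 of 6 sarcomas exceeded both muscles and Ca/Ca sarcoma 5 lay between them. The difference of 1.31 ± 0.44 had an adjusted p of 0.0606, and of 0.00553 without Ca/Ca sarcoma 5. The remaining licensing genes were higher by 1.15 (Mcm2), 1.32 (Mcm4), 1.45 (Gmnn, geminin, the inhibitor of Cdt1), 1.54 (Mcm7) and 1.59 (Cdc6, the loader of the ring). Of these, Mcm2, Mcm4, Gmnn and Cdc6 lost their call without the Ca/+ muscle, with adjusted p of 0.184, 0.178, 0.0857 and 0.234. Mcm2 lost it too without the Ca/Ca muscle, Ca/Ca sarcoma 1 or Ca/+ sarcoma 2, and Gmnn without the Ca/Ca muscle.

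The 4 genes of origin firing all rose, with a median difference of 1.70. Dbf4, the activating subunit of the Cdc7 kinase, had the largest difference of the 45 genes. It read 5.62 in the Ca/Ca and 4.60 in the Ca/+ muscle, and 6.75 to 8.29 in the sarcomas (median 7.39), so the groups were apart by more than 1 log2 unit. The Ca/+ sarcomas were the top pair at 8.29 and 8.11. The difference was 2.43 ± 0.42, 5.40-fold (adjusted p = 0.00424), and without the Ca/+ muscle it was 1.93 (adjusted p = 0.0618).

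Cdc45, the helicase cofactor that turns the loaded ring into a moving one, read 4.96 and 4.51 in the Ca/Ca and Ca/+ muscle. Sarcomas read 6.49 to 7.35 (median 6.57), and the 4 Ca/Ca sarcomas lay within a narrow band from 6.49 to 6.61. The difference was 2.03 ± 0.26, 4.07-fold (adjusted p = 0.00111). Cdc45 was the only member called under each alternative in which it was tested, including the fit on Ca/Ca arrays alone. Gins1, a subunit of the GINS complex, was higher by 1.36 and Cdc7, the kinase, by 1.33, and without the Ca/+ muscle their adjusted p-values were 0.164 and 0.229. Both calls also ended without the Ca/Ca muscle, Ca/Ca sarcoma 1 or 2 or Ca/+ sarcoma 1, and that of Cdc7 without Ca/+ sarcoma 2. The Cdc7 call ended as well when its probe sets were averaged and when the arrays were centred on housekeeping genes. The other Cdc7 probe set differed by only 0.01, with a mean of 4.39 in the muscles and 4.40 in the sarcomas.

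Among the 8 genes of polymerases and primase, 3 rose (Pola1, Prim2 and Pole2) and 5 did not pass. Prim2, the large primase subunit, read 5.63 in the Ca/Ca and 4.96 in the Ca/+ muscle, and 6.27 to 7.17 in the sarcomas (median 6.82). No sarcoma reached down to the muscles. The difference was 1.49 ± 0.25 (adjusted p = 0.00392), and 1.16 without the Ca/+ muscle (adjusted p = 0.0573). Pola1, the catalytic subunit of polymerase alpha, read 5.23 and 5.43 in the Ca/Ca and Ca/+ muscle and 5.58 to 7.33 in the sarcomas (median 6.97), with Ca/Ca sarcoma 5 just above the muscles. Its difference of 1.42 ± 0.42 (adjusted p = 0.0393) was lost on leaving out any array except Ca/Ca sarcoma 3 or 5, with adjusted p from 0.0641 to 0.176. Pole2, the second subunit of polymerase epsilon, was higher by 1.41 (adjusted p = 0.0161), and had an adjusted p of 0.149 without the Ca/+ muscle and 0.0530 without the Ca/Ca muscle.

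The 5 that did not pass fall into those with a large difference and a wide spread, and those with a small one. Prim1, the catalytic primase subunit, read 6.20 in the Ca/Ca and 6.05 in the Ca/+ muscle, and 5.80 in Ca/Ca sarcoma 5, below both, while the other 5 sarcomas read 7.63 to 8.37. Its difference was 1.42 ± 0.57 (adjusted p = 0.105), while leaving out Ca/Ca sarcoma 5 gave 1.77 (adjusted p = 0.00115). Pole, the catalytic subunit of polymerase epsilon, read 5.02 and 4.56 in the Ca/Ca and Ca/+ muscle and 5.17 to 6.87 in the sarcomas (median 6.31).

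All sarcomas were above both muscles for Pole, Ca/Ca sarcoma 5 by the least. The difference of 1.34 ± 0.45 had an adjusted p of 0.0585, and of 0.0165 without Ca/Ca sarcoma 5. The subunits of polymerase delta and the second subunit of polymerase alpha differed by less. Pold1, the catalytic subunit of delta, read 6.00 and 6.02 in the Ca/Ca and Ca/+ muscle and 6.02 to 7.32 in the sarcomas (median 6.64), a difference of 0.64 ± 0.34 (adjusted p = 0.212). Pold2, its second subunit, read 6.89 and 6.91 in the muscles and 6.72 to 7.86 in the sarcomas (median 7.26), with Ca/Ca sarcoma 3 below both muscles and a difference of 0.39 ± 0.27 (adjusted p = 0.345). Pola2, the second subunit of polymerase alpha, read 6.33 and 6.39 in the muscles and 6.42 to 7.10 in the sarcomas (median 6.88), a difference of 0.46 ± 0.19 (adjusted p = 0.121). For Pold1 and Pola2 the lowest sarcoma touched the muscle level, and the Ca/+ sarcomas were highest for all of these.

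All 5 genes of the clamp and its loader rose, with a median difference of 1.07. Rfc5, a loader subunit, read 6.33 in the Ca/Ca and 5.73 in the Ca/+ muscle, and 7.26 to 8.50 in the sarcomas (median 7.88). The lowest sarcoma was well clear of the higher muscle. The difference was 1.88 ± 0.31, 3.69-fold (adjusted p = 0.00361), and 1.58 without the Ca/+ muscle (adjusted p = 0.0546). Rfc3, another loader subunit, read 5.59 and 5.35 in the Ca/Ca and Ca/+ muscle and 6.09 to 7.38 in the sarcomas (median 6.67), a difference of 1.27 ± 0.29 (adjusted p = 0.0145), with adjusted p of 0.133 without the Ca/+ muscle and 0.0545 without the Ca/Ca muscle. Pcna, the sliding clamp that holds polymerases on DNA, was higher by 0.94, Rfc4 by 1.07 and Rfc2 by 0.85. Their calls ended without the Ca/+ muscle, where the adjusted p-values were 0.185, 0.145 and 0.223, and also without the Ca/Ca muscle, Ca/Ca sarcoma 1 or Ca/+ sarcoma 1. The call of Rfc2 ended without Ca/Ca sarcoma 2 or 3 as well, and that of Rfc4 on leaving out any array except Ca/Ca sarcoma 5.

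With the probe sets used, the lagging-strand and single-strand genes gave the lowest median of the role groups, 0.71, with 2 of 5 higher. Fen1, the nuclease that trims Okazaki fragments, read 8.54 and 8.58 in the Ca/Ca and Ca/+ muscle and 9.18 to 9.39 in the sarcomas (median 9.27). Its spread over the sarcomas was small (SD 0.08, n = 6), so that a difference of 0.71 ± 0.11 had an adjusted p of 0.00294 and kept its call without any 1 array. This difference is also the median of the group. The other Fen1 probe set differed by 1.39, so the rank of the group depends on the choice of probe set. Rpa3, the small subunit of the single-strand binding complex RPA, read 6.78 and 7.07 in the muscles and 7.29 to 8.44 in the sarcomas (median 8.05), a difference of 1.07 ± 0.30 (adjusted p = 0.0311). That call did not hold without either muscle, Ca/Ca sarcoma 2 or Ca/+ sarcoma 2, with adjusted p from 0.0508 to 0.176.

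The other 3 of this group did not pass. Lig1, the ligase that seals the fragments, read 7.02 in the Ca/Ca and 6.45 in the Ca/+ muscle, and 7.05 to 8.75 in the sarcomas (median 8.41). Ca/Ca sarcomas 5 and 3, at 7.05 and 7.20, lay near the Ca/Ca muscle and the other 4 were above 8. The difference of 1.32 ± 0.48 had an adjusted p of 0.0798, and of 0.0260 without Ca/Ca sarcoma 5. Rpa1, the large RPA subunit, read 9.19 and 9.08 in the muscles and 8.78 to 9.97 in the sarcomas (median 9.69), and Rpa2, the middle one, 7.20 and 6.99 against 6.74 to 7.80 (median 7.32). Both overlapped the muscles, with 2 and 1 sarcomas below them, and the differences were 0.37 ± 0.34 (adjusted p = 0.479) and 0.25 ± 0.27 (adjusted p = 0.548). The 3 subunits of RPA, which work as a trimer, thus had differences that ran from 0.25 to 1.07 with the probe sets used. The other Rpa2 probe set differed by 0.65, with 6 sarcomas above both muscles, and the other Rpa1 probe set by 0.27.

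Of the 5 nucleotide supply genes 3 rose. Rrm2, the regulated subunit of ribonucleotide reductase, read 6.73 in the Ca/Ca and 5.94 in the Ca/+ muscle, and 7.11 to 9.16 in the sarcomas (median 8.39). The Ca/+ sarcomas, at 9.10 and 9.16, stood above the rest. The difference was 2.05 ± 0.51, 4.14-fold (adjusted p = 0.0189), and 1.65 without the Ca/+ muscle (adjusted p = 0.186). Tk1, the thymidine kinase of dividing cells, read 6.27 and 5.41 in the Ca/Ca and Ca/+ muscle and 6.28 to 8.87 in the sarcomas (median 7.85). Ca/Ca sarcoma 5 matched the Ca/Ca muscle to within 0.01, and the other 5 sarcomas were above 7. The difference of 1.99 ± 0.64 missed the threshold (adjusted p = 0.0508), and had an adjusted p of 0.00814 without Ca/Ca sarcoma 5.

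Dut, the dUTPase that keeps uracil out of DNA, was higher by 1.57 ± 0.22 (adjusted p = 0.00157) without depending on any 1 array. Ca/Ca sarcoma 5 was the highest sarcoma, at 9.06, as it was for 1 other member, Tyms, while the other sarcomas read 8.29 to 8.59 and the muscles 7.05 and 6.80. Rrm1, the other subunit of the reductase, was higher by 1.24 (adjusted p = 0.0463, and 0.307 without the Ca/+ muscle), a call that also ended without the Ca/Ca muscle, Ca/Ca sarcoma 1 or 2 or either Ca/+ sarcoma. Tyms, thymidylate synthase, read 2.30 and 2.36 in the Ca/Ca and Ca/+ muscle and 2.24 to 2.45 in the sarcomas (median 2.33), a difference of 0.01 ± 0.11 (adjusted p = 0.980). On all 8 arrays this is below 3.49, the median reading of 23 genes of other organs taken as silent in muscle and sarcoma. The 3 Tyms probe sets with a single symbol all read this low, and a further probe set that carries the symbols of Tyms and its pseudogene was not used. No change of Tyms can be read from these values.

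All 3 genes of entry into S phase had positive differences, and 2 passed. E2f1, a transcription factor that drives the S-phase programme, read 6.25 in the Ca/Ca and 4.88 in the Ca/+ muscle. Sarcomas read 6.53 to 7.46 (median 6.72), so the Ca/Ca muscle lay 0.29 below the lowest sarcoma while the Ca/+ muscle lay far below. The difference was 1.29 ± 0.37 (adjusted p = 0.0328), and 0.61 without the Ca/+ muscle (adjusted p = 0.346). Ccne1, cyclin E1, which activates Cdk2 at the G1/S boundary, read 5.46 in the Ca/Ca and 3.83 in the Ca/+ muscle, and 5.97 to 7.14 in the sarcomas (median 6.33).

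The pattern of the muscles was the same for Ccne1, whose muscles were the farthest apart of the 45 genes. Its difference was 1.83 ± 0.45 (adjusted p = 0.0180), and 1.02 without the Ca/+ muscle (adjusted p = 0.200). Ccne2, cyclin E2, read 5.37 and 4.81 in the Ca/Ca and Ca/+ muscle and 5.36 to 7.38 in the sarcomas (median 6.58), with Ca/Ca sarcoma 5 at the level of the Ca/Ca muscle. The difference of 1.33 ± 0.49 did not pass (adjusted p = 0.0780, and 0.0211 without Ca/Ca sarcoma 5). E2f1 also lost its call without Ca/Ca sarcoma 1 or 2 or either Ca/+ sarcoma.

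With the probe sets used, the 3 checkpoint and repair genes rose, with the highest median of any role group, 1.92. Other probe sets of Chek1 differed by 2.09, 0.48 and -0.07, and those of Brca1 by 0.71, 0.61 and -0.09. All of these had lower mean levels than the probe sets used, and the rank of the group depends on that choice. Brca1, which acts in homologous recombination at stalled forks, read 4.36 in the Ca/Ca and 3.81 in the Ca/+ muscle, and 5.71 to 7.11 in the sarcomas (median 6.29). Every sarcoma exceeded the higher muscle by more than 1 log2 unit. The difference was 2.28 ± 0.39, 4.85-fold (adjusted p = 0.00401), and 2.00 without the Ca/+ muscle (adjusted p = 0.0574). Chek1, the kinase that signals stalled replication, read 4.04 and 3.68 in the Ca/Ca and Ca/+ muscle and 4.99 to 6.23 in the sarcomas (median 5.88), a difference of 1.92 ± 0.31 (adjusted p = 0.00335). Its call held without any 1 array. Tipin, which helps stabilise the fork, read 7.64 and 7.57 in the muscles and 8.10 to 9.24 in the sarcomas (median 8.72), a difference of 1.09 ± 0.27 (adjusted p = 0.0181, 0.133 without the Ca/+ muscle and 0.0800 without the Ca/Ca muscle). The muscle means of Brca1, Chek1, Chaf1b and Cdc7 lay below 4.55, the 75th percentile of the readings of silent genes, so their differences may be understated.

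Both genes of histone supply and chromatin assembly rose. Chaf1b, a subunit of the assembly factor that loads histones behind the fork, read 4.69 in the Ca/Ca and 4.22 in the Ca/+ muscle, and 5.80 to 6.74 in the sarcomas (median 6.32). The groups were apart by more than 1 log2 unit, and the difference of 1.84 ± 0.26 (adjusted p = 0.00158) held without any 1 array. Slbp, which binds the stem-loop of histone mRNAs, read 8.53 and 8.40 in the Ca/Ca and Ca/+ muscle and 8.73 to 9.95 in the sarcomas (median 9.54). Its difference was 1.02 ± 0.28 (adjusted p = 0.0296), with an adjusted p of 0.190 without the Ca/+ muscle, and it also lost its call without the Ca/Ca muscle, Ca/Ca sarcoma 2 or Ca/+ sarcoma 1.

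**Figure D3:**
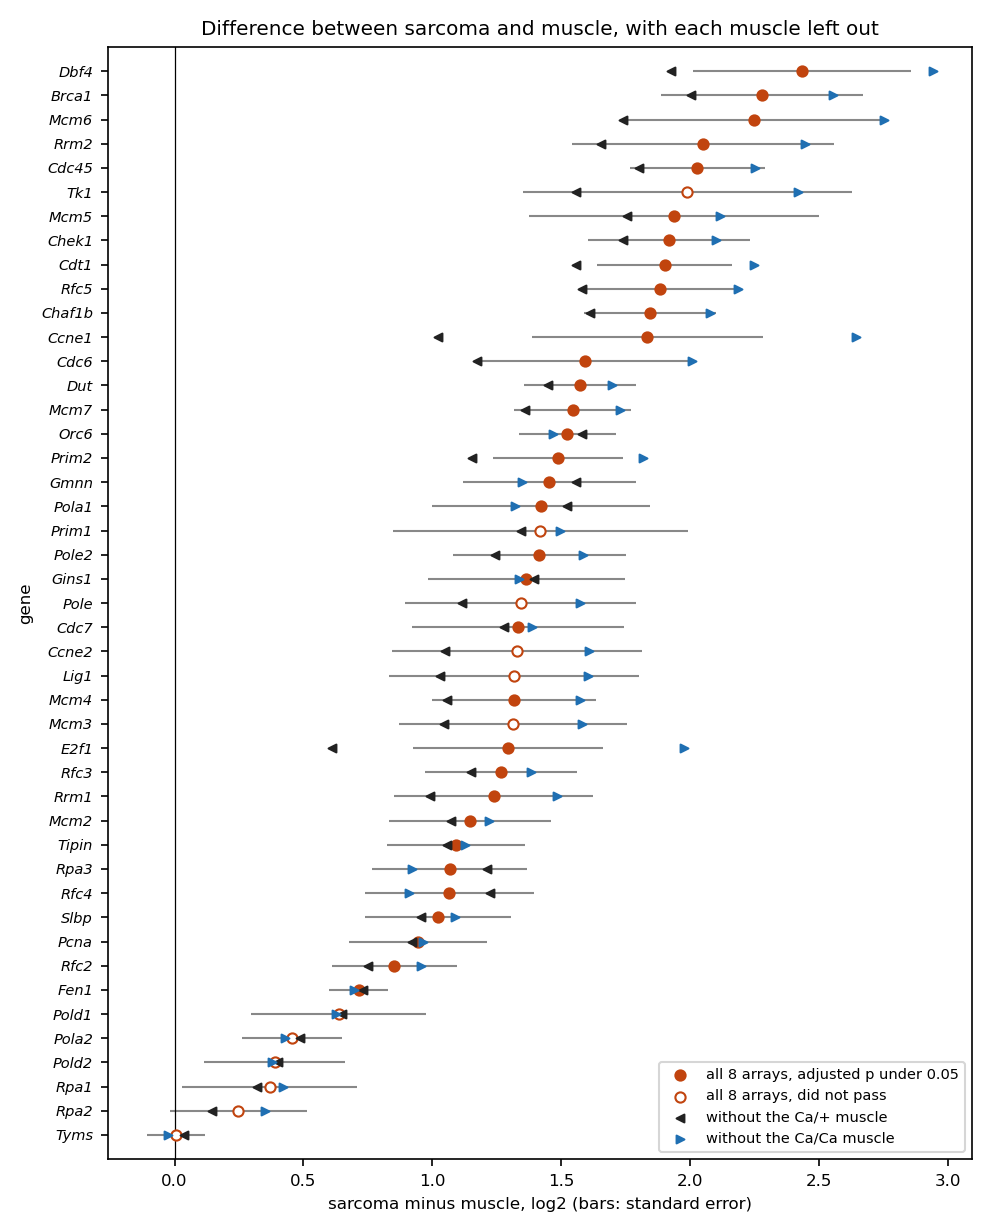
Difference between sarcoma and muscle for each gene, log2, with standard errors (bars), from 6 sarcomas and 2 muscles; filled circles passed and open circles did not. Triangles show the same difference without the Ca/+ muscle or without the Ca/Ca muscle: for Ccne1 it is 1.02 without the Ca/+ muscle and 1.83 with both muscles.

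The muscles of the 2 genotypes were not alike in these genes. The Ca/Ca muscle read higher than the Ca/+ muscle for 34 of 45 members, while 49% of all genes did so, and the median difference was 0.34 in the members and -0.01 over all genes. It was at least 2-fold higher for Ccne1 (1.62), E2f1 (1.37), Dbf4 (1.01) and Mcm6 (1.01), where the background is 4.49%, and at least 2-fold lower for none (2.53%). With 1 array of each there is no test. All 17 measured mitosis genes also read higher in the Ca/Ca muscle, by a median of 1.14, as did 10 of 10 macrophage markers, by a median of 1.28. The summed linear level of these macrophage markers was 17360 in the Ca/Ca and 7945 in the Ca/+ muscle. Of the fibroblast and mesenchymal markers 9 of 10 read higher in the Ca/Ca muscle (median 0.69). None of 5 adipocyte markers did (median -1.36, sums 11210 and 23730), nor any of 8 lymphocyte markers (median -0.62, sums 711 and 1345). The part of these in the member values was not tested.

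Across the sarcomas, the members moved together from array to array. Measured against the Ca/+ muscle, their median was 0.60 in Ca/Ca sarcoma 5, 1.32 in Ca/Ca sarcoma 3, 1.60 in Ca/Ca sarcoma 2 and 1.64 in Ca/Ca sarcoma 1. It was 1.91 in Ca/+ sarcoma 1 and 2.06 in Ca/+ sarcoma 2. Ca/Ca sarcoma 5 was the lowest sarcoma for 37 of 45 members, and Ca/+ sarcoma 2 the highest for 33 and Ca/+ sarcoma 1 for 8. Of all 12393 genes, Ca/Ca sarcoma 5 was lowest for 2546, Ca/+ sarcoma 2 highest for 1937 and Ca/+ sarcoma 1 highest for 2143. The SD over the 6 sarcomas had a median of 0.46 in the members and 0.24 over all genes. Ca/Ca sarcoma 5 also had the lowest summed macrophage level of the sarcomas, 11080 against 16610 to 25220 in the others. It read lowest of the sarcomas for 7 of 8 lymphocyte markers, whose sum of 231 was also the lowest, and for all 17 mitosis genes. The part of these in the member values was not tested.

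**Figure D4:**
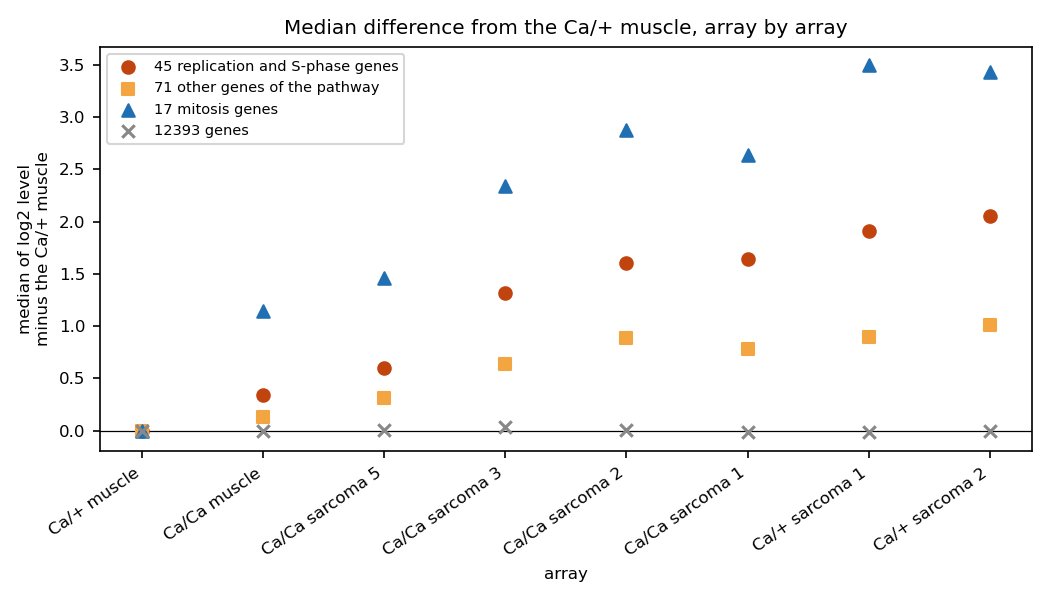
Median over each gene list of the log2 level minus that of the Ca/+ muscle (vertical axis), for each of the 8 arrays. The 45 members run from 0.34 in the Ca/Ca muscle to 2.06 in Ca/+ sarcoma 2, the 17 mitosis genes from 1.14 to 3.50, and all 12393 genes stay near 0.

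The comparison of Ca/Ca with Ca/+ sarcomas asked whether the copy number of the conditional Braf allele goes with the level of these genes. No member and no gene of the 12393 passed in limma (adjusted p under 0.05, 4 against 2 sarcomas). The background is therefore 0%. The members lay mostly on 1 side: 42 of 45 had a lower mean in Ca/Ca sarcomas, with a median difference of -0.65, beside -0.00 over all genes. The mean was higher in Ca/Ca sarcomas for 3 members, and for 6185 of all 12393 genes. As the members moved together from array to array, they are not separate observations in these counts. For 31 members all 4 Ca/Ca sarcomas read below both Ca/+ sarcomas, where 11.3% of all genes did, and for 0 they all read above (9.68%). At an unadjusted p under 0.05 there were 17 members, and 971 genes in all (7.84%). The lowest adjusted p of a member was 0.579.

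The genes with the largest negative difference were Tk1, Rrm2 and Ccne2. Tk1 read 6.28, 7.36, 7.92 and 7.78 in Ca/Ca sarcomas 5, 3, 2 and 1 and 8.77 and 8.87 in Ca/+ sarcomas 1 and 2, a difference of -1.49 ± 0.46 (limma adjusted p = 0.618). Rrm2 read 7.11, 8.14, 8.44 and 8.35 in the same Ca/Ca sarcomas and 9.10 and 9.16 in the Ca/+ pair, a difference of -1.12 ± 0.38 (adjusted p = 0.624). Ccne2 read 5.36, 6.44, 6.72 and 5.80 against 7.38 and 6.81, a difference of -1.01 ± 0.41 (adjusted p = 0.632). In each of these the lowest value is that of Ca/Ca sarcoma 5, and without it the differences were -1.14, -0.82 and -0.77. The median over the members was then -0.46.

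Only 3 members had a mean that was not lower in Ca/Ca sarcomas. Orc6 read 7.13, 7.46, 7.12 and 6.97 in Ca/Ca sarcomas 5, 3, 2 and 1 and 6.71 and 7.23 in the Ca/+ sarcomas, a difference of 0.20 ± 0.21 (adjusted p = 0.803). Cdt1 read 9.06, 8.84, 9.56 and 9.36 against 8.86 and 9.49, with a difference of 0.03 ± 0.27 (adjusted p = 0.986). The genotypes overlapped for both genes. Tyms differed by 0.00 (adjusted p = 0.997), at its low reading. The sign of the Cdt1, Tyms, Dut and Fen1 differences turned with the processing, as did that of Orc6 and Rpa3 without 1 Ca/+ sarcoma. Summed macrophage markers ran from 11080 to 25220 in Ca/Ca and from 16610 to 25110 in Ca/+ sarcomas, and summed muscle markers from 4432 to 8844 and from 1757 to 8862.

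By role, all 4 Ca/Ca sarcomas were below both Ca/+ sarcomas for 8 of 8 genes of polymerases and primase, 4 of 4 of origin firing and 3 of 3 of S-phase entry, but for 5 of 10 licensing genes and 1 of 5 lagging-strand and single-strand genes. Of the polymerase genes, Pold1 read 6.02 to 6.74 in Ca/Ca sarcomas and 7.10 and 7.32 in Ca/+ sarcomas. Its mean in the Ca/Ca sarcomas was 6.36 ± 0.34 (SD, n = 4) and in the Ca/+ sarcomas 7.21 ± 0.15 (SD, n = 2). That difference of -0.84 had an adjusted p of 0.595. Cdc45 read 6.49 to 6.61 in Ca/Ca sarcomas and 7.05 and 7.35 in Ca/+ sarcomas, a difference of -0.66 ± 0.14 (adjusted p = 0.579).

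**Figure D5:**
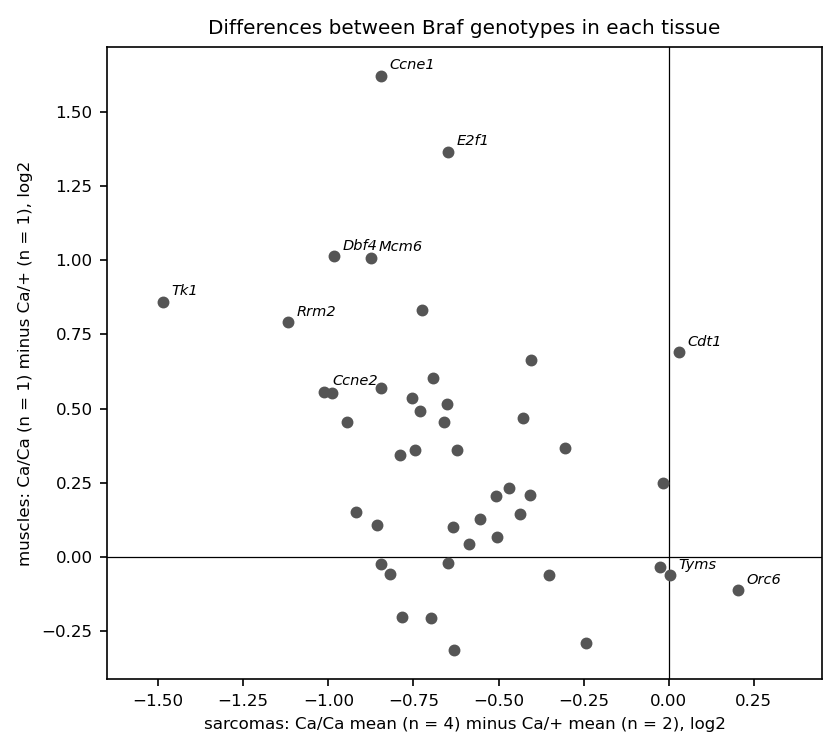
Difference between Braf genotypes for each of the 45 genes, in sarcomas (horizontal axis: Ca/Ca mean of 4 minus Ca/+ mean of 2, log2) and in muscles (vertical axis: 1 array minus 1 array, log2). Most genes lie in the upper left, lower in Ca/Ca sarcomas and higher in the Ca/Ca muscle; Ccne1 is at -0.84 and 1.62 and Orc6 at 0.20 and -0.11.

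Whether the genotype difference was unlike in sarcoma and muscle was tested as an interaction over all 4 groups, with 1 muscle of each genotype and 4 residual degrees of freedom. In limma 1 of 12393 genes passed (0.00807%), and no member did. At an unadjusted p under 0.05 there were 9 members, and 895 genes in all (7.22%). The most negative values were those of Ccne1, -2.47 ± 0.32 (adjusted p = 0.102), and Tk1, -2.35 ± 0.88 (adjusted p = 0.664). E2f1 followed with -2.01 ± 0.29 (adjusted p = 0.160), and the median over the members was -0.90. In Ccne1 and E2f1 the Ca/Ca muscle was above the Ca/+ muscle and the Ca/Ca sarcomas were below the Ca/+ sarcomas. Against the 1 muscle of its own genotype, the sarcoma mean was higher by a median of 0.99 over the members in Ca/Ca arrays and 1.97 in Ca/+ arrays, values that rest on a single muscle each.

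The rest of the replication pathway was read from a list of 92 further genes, of which 71 were measured. Of these 26 rose in sarcoma, 4 fell and 41 did not pass, with a median difference of 0.67. The largest rises were those of Skp2, which marks cell cycle inhibitors for destruction (2.91, adjusted p = 0.000436), E2f8, a repressor of the E2F family (2.78, adjusted p = 0.00781), and Hells, a chromatin remodeller (2.43, adjusted p = 0.000532). The falls were those of Rbl2, a relative of the retinoblastoma protein (-1.03, adjusted p = 0.0252), Rrm2b, the p53-induced subunit of ribonucleotide reductase (-1.03, adjusted p = 0.00187), Rb1, the retinoblastoma protein itself (-0.91, adjusted p = 0.0221), and Cdkn1b, an inhibitor of Cdk2 (-0.85, adjusted p = 0.0343). Rrm2b read 7.28 and 7.50 in the Ca/Ca and Ca/+ muscle and 6.17 to 6.59 in the sarcomas, the opposite direction to Rrm2. Rb1 read 7.43 and 7.75 in the muscles and 6.09 to 7.01 in the sarcomas, with no overlap.

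Mitosis genes, which act after replication, differed by more than the members: 12 of 17 rose, with a median of 2.24. Cdk1, the kinase of mitotic entry, was higher by 2.88 (limma adjusted p = 0.00488), Birc5, survivin, by 2.79 (adjusted p = 0.0174), and Bub1, a spindle checkpoint kinase, by 2.78 (adjusted p = 0.00748). None of the 12 kept its call without the Ca/+ muscle. The order of the arrays was much the same as in the members, with the mitosis medians at 1.46 in Ca/Ca sarcoma 5, 3.50 in Ca/+ sarcoma 1 and 3.44 in Ca/+ sarcoma 2.

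Markers of other cell types moved with the same comparison. All 10 markers of skeletal muscle fibres, such as Acta1 and Ckm, fell in sarcoma, and their summed linear level was 92930 to 100800 in the muscles and 1757 to 8862 in the sarcomas. All 5 adipocyte markers and 6 of 8 endothelial markers also fell. Of 10 fibroblast and mesenchymal markers 3 rose, with summed levels of 18040 to 24830 in muscles and 18440 to 26620 in sarcomas, and of 10 macrophage markers 1 rose (7945 to 17360 against 11080 to 25220). Of 8 lymphocyte markers none passed, with sums of 711 to 1345 and 231 to 1321. In such bulk samples fewer cells of a type and less RNA per cell cannot be told apart, and the part of tissue composition in the member differences was not tested.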

How the data were processed

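Per the submitters' processing notes, the authors made the deposited log2 values with RMA, which corrects background, equalises the arrays and summarises each probe set; its version, and whether all arrays were processed together, are not given in the sources used here. Nothing was normalized again. Of 22690 probe sets, 64 were controls, 20380 carried 1 gene symbol, 691 several and 1555 none listed; those with 1 symbol gave 12393 genes, each read from the probe set of highest mean over the 8 arrays. All 8 columns belong to the labelled samples, and no 2 arrays held the same values. The number of arrays limits the precision.

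Groups came from the sample titles. Levels were fitted with limma 3.58.1 (lmFit and eBayes, R 4.3.3) for sarcoma against muscle, for Ca/Ca against Ca/+ sarcoma and for their interaction, p-values being adjusted by Benjamini-Hochberg across the 12393 genes and called under 0.05. The scripts were tested on simulated data. Figures and counts used Python 3.11.15 and matplotlib 3.10.9. Alternatives were the mean of probe sets, filters on the dimmest 25% and 50% of genes, cyclic loess, centring on housekeeping genes, eBayes with trend and robust settings, array weights, genotype as a covariate, each genotype alone, each array left out, a block on tumour number and, added after the data were seen, leaving out the Ca/Ca muscle and Ca/Ca sarcoma 5 together.

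The members and all lists were chosen with earlier results of these data known. Both muscles and the range of the sarcomas are given for the 2 members of each role group with the largest difference (all members in groups of up to 3). The same is given for members that did not pass, and for the 3 with the largest genotype difference in each direction. Cdt1 and Orc6 come in by the last of these. Single sarcoma values are given for Tk1, Rrm2, Ccne2, Orc6 and Cdt1. Dut, Fen1 and, for genotype, Pold1 and Cdc45 were added after their values were seen. From the other lists, the 3 largest rises and falls past the threshold are named; Cdkn1b, the remaining fall, was added. Members, 71 of 92 pathway genes, 17 of 18 mitosis genes and 89 of 102 marker genes were matched by symbol or synonym. RefSeq promoters are of GRCm38.p6.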

Additional observations from a re-analysis of the deposited data

Results flagged for a closer look

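Each gene's spread was examined in the 6 sarcomas and in the 4 Ca/Ca sarcomas, 90 groups in all, by the gap between an extreme array and its nearest neighbour as a share of the whole range. Chance flags about 1 in 20 such groups, and 5 were flagged, each time for Ca/Ca sarcoma 5. In Prim1 it was the lowest of the 6 sarcomas, at 5.80, with a share of 0.713 (critical value 0.625), and the lowest of the 4 Ca/Ca sarcomas with a share of 0.911 (critical value 0.829). In the same 4 sarcomas it was the lowest for Gins1, at 5.48 with a share of 0.924, and for Dbf4, at 6.75 with a share of 0.885. For Dut it was the highest, at 9.06 with a share of 0.955. No cause was tested.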

How the results depend on the processing

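Over the 19 alternatives of sarcoma against muscle, 33 members called higher became 2 on Ca/Ca arrays alone (1 muscle) and 8 (without the Ca/+ muscle) to 40 (without Ca/Ca sarcoma 5) when 1 array was left out; elsewhere the count lay from 23 to 40. The median was 1.97 on Ca/+ arrays alone, and the direction turned for Tyms alone: -0.12 with the mean of probe sets, -0.18 with housekeeping centring, -0.027 on Ca/+ arrays, -0.048 without the Ca/Ca muscle and Ca/Ca sarcoma 5 together, and from -0.025 to 0.035 when 1 array was left out. Housekeeping centring moved the median of all genes from 0.03 to -0.16. Genes called higher numbered 1076 with that centring, 91 on Ca/Ca arrays, 592 on Ca/+ arrays and 372 to 1772 with 1 array left out; genes called lower numbered 884 without the dimmest 50%, 510, 695 and 823 to 1679.

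Between genotypes no member was called under the 14 alternatives, and genes called lower ranged from 0 to 1 (without Ca/+ sarcoma 1). Signs turned for Cdt1 (-0.083 with the mean of probe sets, -0.29 to 0.35 with 1 array left out), Tyms (-0.056 with that mean, -0.078 with cyclic loess, -0.035 to 0.038), Fen1 (0.049 with cyclic loess, 0.072 with housekeeping centring, -0.12 to 0.071) and Dut (0.073, 0.082, -0.20 to 0.061). With 1 array left out they also turned for Orc6 (-0.058 to 0.46) and Rpa3 (-0.53 to 0.047). For the interaction, genes called higher were 0 without the dimmest 25% or 50%, 11 (6 lower) with trend and robust settings, 8 (5 lower) with array weights, and 0 to 1 with 1 array left out. The causes were not tested.

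Nothing in the labels says that same-numbered sarcomas of the 2 genotypes share more than a number. Their deviations correlated at 0.03 over 2 pairs, too few to decide whether they share anything else. With the tumour number as a replicate block, 0 members were called, the median genotype difference was -0.35 and that of Tyms -0.0042. With 2 muscles and 2 Ca/+ sarcomas the number of arrays limits every comparison, and probe sets near the reading of silent genes, such as those of Tyms, show no change that could be read.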
